A study of Mus musculus with 80 samples.

Results

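The transcriptional response to the first 3 h of the sleep period was measured in mouse heart as the difference between 9 arrays of animals left to sleep for 3 h and 10 arrays of animals killed at lights-on, 19 of the 80 arrays in the series. The comparison was described across 21218 probe sets that carry a single gene symbol (18820 symbols), out of 35556 probe sets tested on Affymetrix Mouse Gene 1.0 ST arrays. All animals were male C57BL/6J mice of 10 ± 1 weeks with no altered gene, each giving 1 array, and all had been fed at night only for 14 days before the study. The baseline animals (0 h) were undisturbed. The sleeping animals were left undisturbed from lights-on. The study scored sleep as inactivity from infrared beam breaks, without brain recording. It reports that undisturbed mice slept for part, not all, of these 3 h. The labels give no sleep amount, so the sleep of each animal is not known here. A further 8 animals kept awake by gentle handling to the same hour (sleep-deprived, 3 h) served for comparison. All were killed by cervical dislocation. Because the sleeping animals were killed 3 h later in the light phase and 3 h further from their last access to food than the baseline animals, sleep, time of day and fasting cannot be told apart between these groups. Sleep-deprived animals shared the hour and the fast with the sleeping ones, but not the handling.

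In the heart, as in other tissues, a circadian clock centres on the transcription factors BMAL1 (Arntl) and CLOCK, which drive the Per, Cry and Nr1d genes through E-box sequences in their promoters, and the products of these genes in turn repress the clock. The beginning of the light phase is the time when a nocturnal animal stops eating, and cardiac muscle, which burns mostly fatty acids, draws on fat more and on glucose less as the fast goes on. Hormones of the fast and of stress, glucocorticoids among them, act on many of the same genes.

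The hearts carried their label. The 9 ventricular cardiomyocyte markers that could be measured (Myl2, Ryr2 and Pln among them) averaged 12.66 to 12.71 on the log2 intensity scale in baseline arrays and 12.69 to 12.76 in sleeping ones, near the top of the range of the arrays, which reached 13.8. The median level of an array was 5.23 to 5.39, and any 2 arrays correlated at 0.978 to 0.995. The number of animals limits the precision. Some features of single arrays bear on the results. Markers of skeletal muscle averaged 8.85 in baseline array 2 and 7.02 in baseline array 3, against 5.71 to 6.15 in the other 8 baseline arrays and 5.63 to 5.79 in all 9 sleeping arrays. Liver markers ranged widely in both groups, from 5.16 to 7.74 in baseline and from 5.40 to 7.57 in sleeping arrays. So did adipocyte markers, from 6.83 to 8.52 and from 6.85 to 8.34. By mean correlation with the other arrays, 5 of the 80 stood apart, 1 of them among the 19 (sleeping array 1). Among the sleep-deprived arrays, array 8 at 3 h had clock transcripts in the range of the 6 h arrays (Arntl at 7.23, against 7.93 to 8.40 in the other 7 and 6.97 to 7.44 in 8 of the 6 h arrays), while array 6 at 6 h lay with the 3 h arrays (Arntl at 7.97). Finally, the titles of the arrays form runs of numbers whose meaning the labels do not give, and all 10 baseline arrays lie in a single run with sleeping arrays 1 to 5, while sleeping arrays 6 to 9 lie in another. No member of the 16 cell type lists passed the test between the groups, and 1, the neuronal Snap25, passed within the baseline run (0.88, adjusted p = 0.0038, against 0.56 and 0.121 with all 9 sleeping arrays). In whole tissue, fewer cells of a type and less RNA per cell cannot be told apart.

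At a false discovery rate of 1% (limma, moderated test on 9 group means over all 80 arrays, Benjamini-Hochberg over all probe sets), 57 of 35556 probe sets differed, which is 0.16% of those tested, with 37 higher (0.104%) and 20 lower (0.0562%) after 3 h of sleep. These counts depended on the arrays and the fit, with 18 higher without sleeping array 2, 20 without baseline array 4 and 24 without baseline array 10, 32 higher and 37 lower with only the 19 arrays in the fit, and 0.641% higher and 0.101% lower with the run of title numbers described above as a block. At an unadjusted p under 0.05 there were 4784. Of the 57, 44 probe sets stood for 43 genes that could be named, 25 genes that rose and 18 that fell, whereas 7 had no symbol, 5 had several and 1 had only a clone-based symbol. The median size of the change in the 44 was 0.38 on the log2 scale, the range 0.17 to 0.95, and 9 of the 44 exceeded 1.5-fold. The groups did not overlap for 19 of the 44 probe sets, 10 of them higher and 9 lower in sleep, and overlapped for 25. Over all 21218 probe sets with 1 symbol, called or not, 25 lay higher without overlap (0.118%) and 32 lower (0.151%). The median difference over 1 probe set per symbol was -0.02. The share of all symbols above 0 was not counted, so counts of list members above 0 below are descriptions only.

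**Figure D1:**
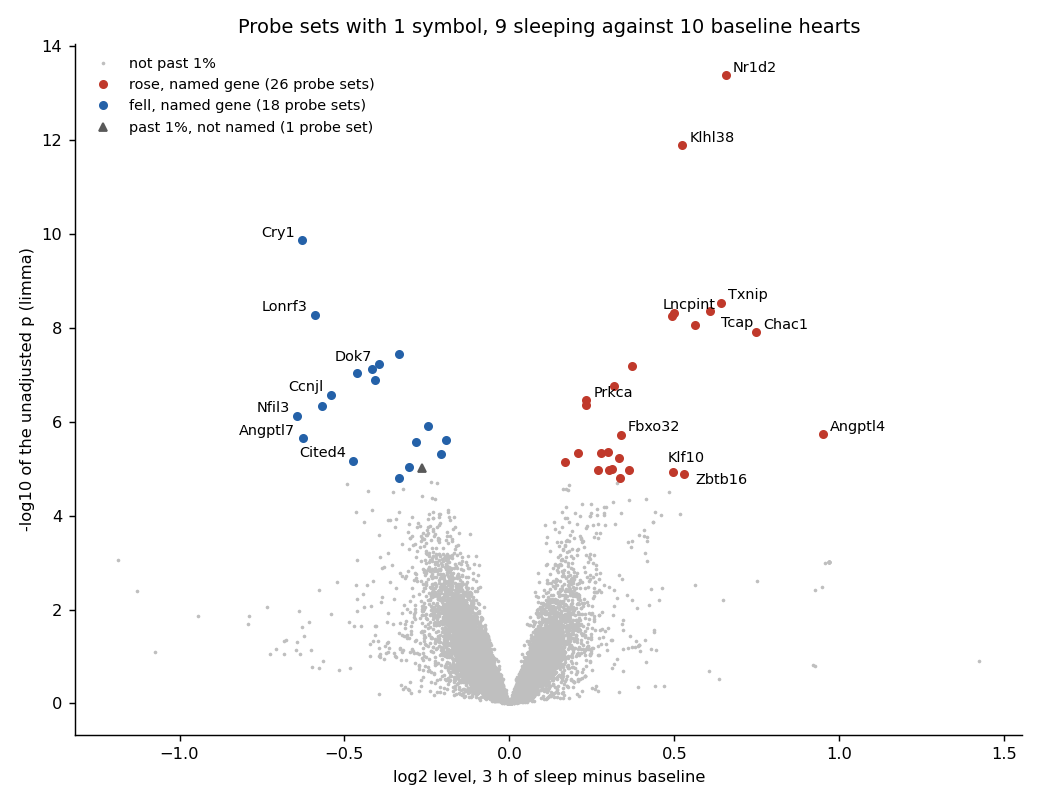
Difference between 3 h of sleep (n = 9) and baseline (n = 10) on the log2 scale (x axis) against -log10 of the unadjusted limma p (y axis) for the 21218 probe sets with 1 symbol. Nr1d2 had the smallest p and Angptl4 the largest difference of those plotted past 1%, and the triangle has only a clone-based symbol and was counted but not named.

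Nr1d2 (REV-ERBβ, a clock nuclear receptor that represses Arntl) had the smallest p of the probe sets with 1 symbol and rose, whereas Cry1 (a repressor of CLOCK and BMAL1) and Nfil3 (E4BP4, a repressor of the D-box genes) fell. The promoters of Cry1 and Nfil3 are shown because both genes moved and both windows hold a clock element, and that of Chac1 because it holds an element of the amino acid response described below. Each window runs from 250 bases before to 50 bases after the start site in RefSeq (GRCm38.p6), written 5′ to 3′ on the strand of the gene, with matches to the motifs in capitals. For Cry1 (chr10:85185005-85185304, minus strand) the capitals mark the E-box CACGTG at position -60 and, at position -79, AACGTG, the other strand of the related element CACGTT. For Nfil3 (chr13:52980990-52981289, minus strand) they mark TGACCTA at position -12, the other strand of the ROR and REV-ERB element TAGGTCA. For Chac1 (chr2:119350992-119351291, plus strand) they mark TTGCATCA at position -193, the other strand of the C/EBP-ATF response element TGATGNAA.
Cry1: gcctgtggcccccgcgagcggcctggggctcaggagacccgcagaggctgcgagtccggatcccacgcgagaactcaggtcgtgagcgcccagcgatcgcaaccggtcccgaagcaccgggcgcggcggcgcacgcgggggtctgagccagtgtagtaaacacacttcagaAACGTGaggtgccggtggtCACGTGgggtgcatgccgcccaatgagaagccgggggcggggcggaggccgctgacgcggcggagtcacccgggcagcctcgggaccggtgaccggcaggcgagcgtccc
Nfil3: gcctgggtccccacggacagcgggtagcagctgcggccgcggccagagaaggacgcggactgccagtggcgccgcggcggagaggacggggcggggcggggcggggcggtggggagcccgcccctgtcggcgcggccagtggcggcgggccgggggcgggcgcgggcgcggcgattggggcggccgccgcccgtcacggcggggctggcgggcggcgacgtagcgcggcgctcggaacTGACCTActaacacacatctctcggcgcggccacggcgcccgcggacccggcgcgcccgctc
Chac1: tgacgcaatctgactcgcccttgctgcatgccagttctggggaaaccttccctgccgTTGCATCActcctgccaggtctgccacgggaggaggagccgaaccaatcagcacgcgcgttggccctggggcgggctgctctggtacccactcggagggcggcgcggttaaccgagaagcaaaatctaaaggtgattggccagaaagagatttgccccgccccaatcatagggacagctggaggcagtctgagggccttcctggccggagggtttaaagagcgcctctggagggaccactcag

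Over all 32851 RefSeq windows, searched on both strands, CACGTG was present in 7.15%, CACGTT in 4.68%, TAGGTCA in 2.61% and TGATGNAA in 3.97%. CACGTG and CACGTT have different last bases and cannot match at the same place on the same strand. RefSeq windows were found for 30 of the 43 genes. CACGTG was in 4 of 15 windows of genes that fell (26.7%: Cry1, Fv1, Lonrf3 and Spring1) and in 2 of 19 windows of genes that rose (10.5%: Klf15 and Lncpint). The D-box TTATGTAA, in 0.938% of all windows, was in none of either. A match is a description of the letters only.

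Nr1d2 stood at 8.23, 8.36 and 8.61 in baseline hearts (lowest, median and highest of 10 animals) and at 8.89, 9.05 and 9.20 in sleeping hearts (of 9). All 9 sleeping animals lay above all 10 baseline animals. The difference was 0.65 ± 0.070 on the log2 scale (SE), or 1.57-fold (adjusted p = 7.42e-10). The difference between sleep-deprived and sleeping animals of the same hour was -0.01 ± 0.074 (adjusted p = 0.983). Without sleep-deprived array 8 it was -0.09 ± 0.069 (limma, adjusted p = 0.553). Nr1d2 rose further between 3 and 6 h of sleep, by 0.59 ± 0.072 (adjusted p = 1.07e-08). A second probe set of the gene, dim at a mean of 3.09 in baseline hearts, gave -0.17 (adjusted p = 0.355). Its sister gene Nr1d1 lies on a probe set shared with another gene and was not described.

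Cry1 stood at 6.19, 6.73 and 6.99 at baseline and at 5.83, 6.15 and 6.33 after 3 h of sleep, with 8 of 9 sleeping animals below every baseline animal. The overlap was between the highest sleeping animal and baseline array 9, which read 6.19, while the next lowest baseline animal read 6.63. The difference was -0.63 ± 0.084 (adjusted p = 9.59e-07). In sleep-deprived hearts Cry1 was 5.97, 6.31 and 6.56 (lowest, median and highest of 8), and the difference from sleep was 0.21 ± 0.089 (adjusted p = 0.193). Without sleep-deprived array 8 that difference was 0.26 ± 0.091 (limma, adjusted p = 0.0941). 

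Nfil3 stood at 7.06, 7.18 and 7.45 at baseline and at 6.30, 6.58 and 6.77 after sleep, with no overlap, a difference of -0.64 ± 0.12 (adjusted p = 0.00105). It fell again from 3 to 6 h of sleep, by 0.93 ± 0.12 (adjusted p = 1.6e-07). Kept-awake animals read 5.85, 7.15 and 7.42, from below the sleeping range to within the baseline range, and the lowest of them was array 8. They differed from sleeping animals by 0.42 ± 0.13 (adjusted p = 0.0422), which did not pass 1%, and without sleep-deprived array 8 by 0.58 ± 0.11 (adjusted p = 0.00039), which did. Wee1, a kinase that holds back mitosis and whose promoter is a known clock target in mouse liver, fell without overlap from 7.75, 7.94 and 8.11 to 7.27, 7.50 and 7.60 (lowest, median and highest), by -0.46 ± 0.078 (adjusted p = 0.000192).

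The other clock genes with a probe set of their own had not passed the test at 3 h. In addition, 1 repressor and 1 PAR bZIP factor lay only on probe sets shared with other genes and were not described. Of the 57 probe sets past 1%, the largest difference and the smallest p were on a probe set with 2 symbols, not named here (1.23 ± 0.093, limma, adjusted p = 1.16e-16). Of the 9 measured repressors, 1 rose and 1 fell (median difference 0.01), and none of 5 activators (0.03) or 6 genes of clock protein turnover (-0.02) passed, with 1 of 3 in the group of the PAR bZIP factors and Nfil3 (-0.23), against 0.223% of all symbols and a median of -0.02. Arntl, at 8.27, 8.33 and 8.36 in baseline and 7.85, 8.03 and 8.17 in sleeping animals, did not overlap between the groups, yet its difference of -0.29 ± 0.10 had an adjusted p of 0.151 in a test whose spread is shared over all 9 groups. With only the 19 arrays in the fit the same difference had an adjusted p of 0.000748. Bhlhe40 differed by 0.18 ± 0.085, Per1 by 0.31 ± 0.15, Per2 by -0.04 ± 0.10 and Per3 by 0.23 ± 0.11 (adjusted p from 0.325 to 0.91). Per2 differed between states at this hour. Sleep-deprived animals exceeded sleeping ones by 0.74 ± 0.11 (adjusted p = 3.16e-06), and Per1 gave 0.62 ± 0.16 (adjusted p = 0.0136). Both values include sleep-deprived array 8, whose clock transcripts lay in the range of the 6 h arrays. Values without that array are not given for Per1 or Per2. Between 3 and 6 h of sleep, Arntl fell by 1.31 ± 0.10 and Npas2 by 1.15 ± 0.095, whereas Per1 rose by 1.06 ± 0.16, Per2 by 1.13 ± 0.11, Per3 by 1.28 ± 0.11 and Ciart by 1.70 ± 0.16 (adjusted p up to 4.15e-06).

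**Figure D2:**
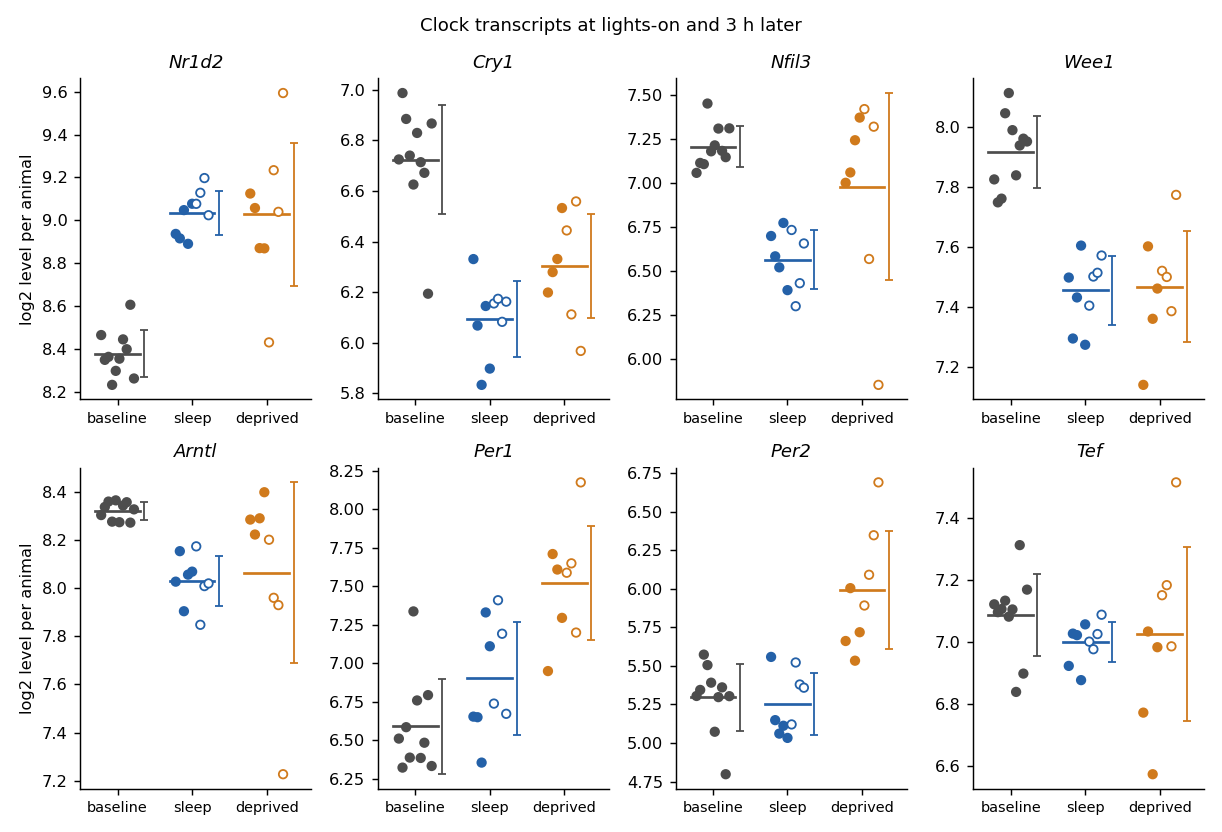
Log2 level per animal at baseline (grey, n = 10), after 3 h of sleep (blue, n = 9) and after 3 h of deprivation (orange, n = 8), with the group mean as a line and the SD as a bar. Filled points lie in the run of title numbers that holds the baseline and open points in the other run. Nr1d2, Nfil3 and Wee1 separated baseline from sleep without overlap and so did Arntl by a smaller distance, and the lowest sleep-deprived Arntl point, at 7.23, is array 8.

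The D-box factors Hlf (-0.23 ± 0.079) and Tef (-0.09 ± 0.075), Cry2 (0.01 ± 0.061), Clock (0.03 ± 0.051), Rora (0.08 ± 0.052) and the kinase gene Csnk1d (-0.02 ± 0.031) differed by no more than 0.23 on the log2 scale, with adjusted p of 0.153 or more. The cold-inducible RNA-binding proteins Cirbp (0.24 ± 0.10) and Srsf5 (0.29 ± 0.094) lay higher after sleep without passing the test (adjusted p = 0.286 and 0.12), and Rbm3 gave -0.0027 ± 0.060. For Rbm3 the sign changed when arrays were centred on their medians or normalised again. Deprived minus sleep at the same hour was -0.64 ± 0.11, -0.73 ± 0.099 and -0.29 ± 0.063, all past 1%.

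Angptl4, a secreted inhibitor of lipoprotein lipase that fasting and PPARs turn on, rose 1.93-fold. It stood at 5.65, 6.27 and 6.63 in baseline and 6.38, 7.27 and 7.59 in sleeping animals, and 7 of the 9 lay above every baseline animal. The difference was 0.95 ± 0.18 (adjusted p = 0.0023). It lost the threshold without sleeping array 2 (adjusted p = 0.011).

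Txnip, an arrestin-like protein that lowers glucose uptake, rose from 10.78, 11.07 and 11.45 to 11.27, 11.65 and 12.18 (lowest, median and highest), with 8 of 9 sleeping animals above the baseline range. The difference was 0.64 ± 0.095 (adjusted p = 1.74e-05), and did not pass with only the 19 arrays in the fit (adjusted p = 0.0181). Cpt1a, which admits long-chain fatty acids to mitochondria, rose by 0.27 ± 0.057 (adjusted p = 0.0074), and leaving out any 1 of 14 of the 19 arrays ended that call. Neither Angptl4 nor Txnip nor Cpt1a differed past 1% between sleep-deprived and sleeping animals (0.23 ± 0.19, 0.16 ± 0.10 and -0.19 ± 0.060).

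Of the list of 28 genes of fatty acid oxidation and PPAR targets, Angptl4 and Cpt1a rose and none fell, against 0.122% of all symbols that rose, and the median difference was 0.01. Pdk4, the kinase that shuts off pyruvate dehydrogenase in fasting, had 11.18, 11.30 and 11.58 at baseline and 11.54, 11.86 and 12.04 after sleep, with a single baseline animal reaching into the sleeping range. Its difference of 0.52 ± 0.12 missed the threshold (adjusted p = 0.0303). The uncoupling protein Ucp3 gave 0.46 ± 0.15 (adjusted p = 0.128). Of 27 genes of glucose transport and glycolysis none passed (median 0.00), the nearest being Pdp2, the phosphatase that opposes Pdk4 (0.29 ± 0.073, adjusted p = 0.0372), and the glycolytic enzyme Pgam1 (-0.31 ± 0.079, adjusted p = 0.0429).

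Among genes that fell, 2 act on sugar. Ppp1r3b, which brings protein phosphatase 1 to glycogen, went from 6.63, 6.83 and 7.20 to 6.28, 6.48 and 6.64, with 8 of 9 sleeping animals below the baseline range, a difference of -0.41 ± 0.070 (adjusted p = 0.000254). Galm, the mutarotase of the galactose pathway, fell by 0.21 ± 0.042 (adjusted p = 0.00425) and was higher in sleep-deprived animals, by 0.22 ± 0.044 over sleep (adjusted p = 0.00084). Spring1, a factor that the cholesterol-regulating SREBP pathway needs, fell without overlap by 0.34 ± 0.055 (adjusted p = 9.67e-05). Of 26 genes of lipid and cholesterol synthesis none passed and 7 were above 0 (median -0.09), with Sqle at -0.39 ± 0.12, Idi1 at -0.35 ± 0.088 and Scd2 at -0.36 ± 0.12 (adjusted p from 0.0386 to 0.113).

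Glucocorticoid receptor targets came next. Of 26 measured, 4 rose (Angptl4, Zbtb16, Klf15 and Klf9) and none fell, with a median of 0.06, against 0.122% of all symbols that rose. The list did not move as a whole, with 16 above 0 and 10 below. Its lowest difference, -0.46, was that of Ddit4, given below. Angptl4 is also in the list of PPAR targets. Zbtb16, a zinc finger protein strongly induced by glucocorticoids, spanned 8.64, 8.83 and 9.19 in baseline and 8.85, 9.38 and 9.98 in sleeping animals. A single sleeping animal lay below the baseline mean and 6 of 9 lay above the whole baseline range. The difference was 0.53 ± 0.11 (adjusted p = 0.00833), and any 1 of 12 arrays ended the call when left out. Zbtb16 was far higher in sleep-deprived animals, at 10.43, 10.52 and 10.75, above every sleeping animal, with a difference from sleep of 1.15 ± 0.12 (adjusted p = 1.99e-10).

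Klf15, a factor that controls amino acid and lipid use in muscle, also rose, from 7.51, 7.72 and 7.92 to 7.91, 7.98 and 8.36, by 0.34 ± 0.073 (adjusted p = 0.00981), and was higher still in sleep-deprived animals by 0.53 ± 0.077 (adjusted p = 1.85e-06). Its call ended without any 1 of 13 arrays. Klf9, another hormone-induced factor of this family, rose without overlap from 9.74, 9.83 and 10.01 to 10.01, 10.08 and 10.21, by 0.28 ± 0.056 (adjusted p = 0.00412), and sleep-deprived animals gave 0.07 ± 0.059 (adjusted p = 0.631). A dim second probe set of Klf9 gave 0.23 (adjusted p = 0.558). Klf10, a factor induced by TGF-β, rose by 0.50 ± 0.11 (adjusted p = 0.00808), a call that ended without any 1 of 13 arrays.

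**Figure D3:**
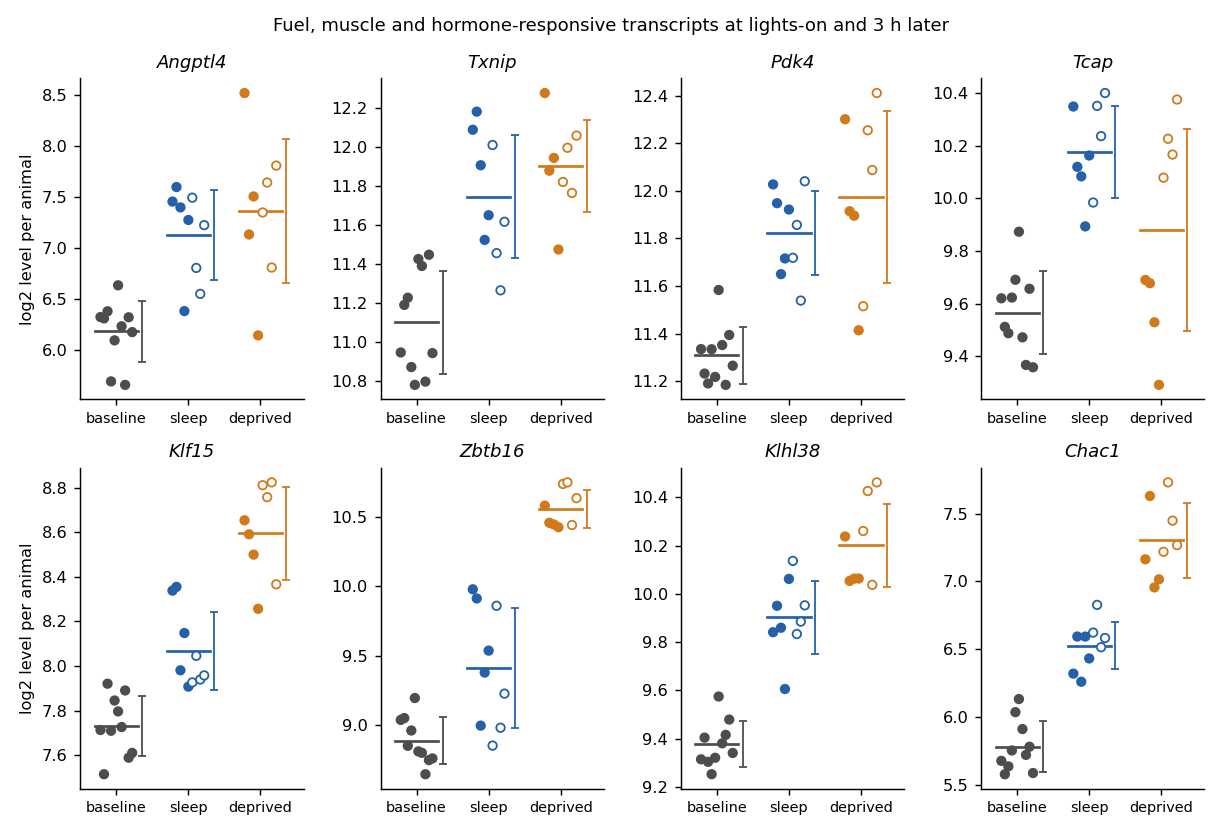
Log2 level per animal of fuel, muscle and hormone-responsive transcripts, with groups, means, SD bars and filled or open points as in the plot of the clock transcripts. Zbtb16 and Chac1 formed a staircase of means from baseline to sleep to deprivation (8.88, 9.41 and 10.56 for Zbtb16; 5.78, 6.53 and 7.30 for Chac1), and Pdk4, with an adjusted p of 0.0303, is shown as a gene that missed the threshold.

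Tcap (telethonin, which caps titin at the Z-disc) rose without overlap, from 9.36, 9.57 and 9.87 to 9.89, 10.16 and 10.40, by 0.61 ± 0.091 or 1.52-fold (adjusted p = 2.03e-05), and rose again from 3 to 6 h of sleep by 0.56 ± 0.094 (adjusted p = 0.000105). Sleep-deprived animals ranged widely, at 9.29, 9.88 and 10.37, with the 4 in the baseline run of title numbers at 9.29 to 9.69 and the 4 in the other run at 10.08 to 10.37, and the group differed from sleep by -0.30 ± 0.097 (adjusted p = 0.0666). The gene was the single one of 23 sarcomere genes to pass (median 0.02), against 0.122% of all symbols that rose. Ttn gave 0.07 ± 0.036 and Myl2 0.09 ± 0.038.

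Fbxo32 (atrogin-1, the ubiquitin ligase of muscle wasting) rose without overlap, from 9.41, 9.56 and 9.70 to 9.70, 9.89 and 10.12, by 0.34 ± 0.065 (adjusted p = 0.0023). It was the single one of 49 ubiquitin ligases and F-box proteins that passed (median -0.01), against 0.122% of all symbols that rose. Klhl38, a kelch protein of striated muscle, had the second smallest p of the probe sets with 1 symbol and did not overlap either, going from 9.25, 9.36 and 9.57 to 9.61, 9.89 and 10.14, by 0.52 ± 0.061 (adjusted p = 1.14e-08). In sleep-deprived animals it stood higher than in sleep by 0.30 ± 0.065 (adjusted p = 0.00232), and by 0.26 ± 0.066 without array 8 (adjusted p = 0.0114), which did not pass. Dok7, an adaptor of the receptor MuSK at the nerve-muscle synapse, fell without overlap by 0.40 ± 0.066 (adjusted p = 0.000152).

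The skeletal muscle markers themselves had a median difference of -0.56 over 12 genes, with 11 lower in sleep and none past 1%. Myh4 read 3.33, 3.57 and 9.35 in baseline and 3.25, 3.39 and 3.60 in sleeping animals and Pvalb 3.60, 4.08 and 9.06 and 3.52, 3.70 and 3.85, so that the high readings came from the baseline arrays named above. Acta1, the skeletal actin, differed by -0.43 ± 0.096 (adjusted p = 0.0147). Tcap rose in the direction opposite to these markers. Without baseline arrays 2 and 3, 25 probe sets were higher and 17 lower, and 31 of the 44 still passed, Tcap, Fbxo32, Klhl38 and Dok7 among them. Whether the remaining 13 depended on these 2 arrays or on their number was not tested.

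Among stress genes, a single one passed. Chac1, a glutathione-degrading enzyme of the amino acid and unfolded protein response, rose without overlap, from 5.58, 5.74 and 6.13 to 6.26, 6.58 and 6.83, by 0.75 ± 0.12 or 1.68-fold (adjusted p = 3.72e-05). Sleep-deprived animals stood at 6.96, 7.24 and 7.73, above every sleeping animal, a further 0.78 ± 0.12 (adjusted p = 1.27e-05). Of 33 ER chaperone and unfolded protein response genes, Chac1 was the only one past the threshold (median -0.06, with 10 above 0). Over all symbols, 0.122% rose. The transcript of Atf4, whose protein drives Chac1, gave -0.19 ± 0.063 (adjusted p = 0.116), and the protein was not measured. Pdia3 gave -0.17 ± 0.071 and Edem1 -0.14 ± 0.065.

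Of 29 cytosolic heat shock proteins and co-chaperones none passed and 3 lay above 0 (median -0.06). Dnajb1 differed by -0.44 ± 0.11 (adjusted p = 0.0347), Chordc1 by -0.37 ± 0.091 (0.0331), Dnajb5 by -0.23 ± 0.058 (0.044) and Hsph1 by -0.28 ± 0.087 (0.0938). Dnajb1 and Chordc1 passed 1% with the sleeping arrays of the baseline run alone (-0.62 and -0.40, adjusted p = 0.00194 and 0.00962). Baseline array 4 read 7.99 for Dnajb1 and 9.84 for Jun, where the next highest baseline arrays read 7.32 and 9.40. Sleep-deprived animals were higher than sleeping ones for 10 of the 29, where 2.24% of symbols differed in either direction, with Hsph1 at 0.87 ± 0.092 and Dnajb1 at 0.72 ± 0.12. None of 28 immediate early genes passed (median -0.05), with Jun at -0.26 ± 0.097 and Atf3 at -0.40 ± 0.17, and Ddit4, a stress-induced brake on mTOR, gave -0.46 ± 0.13 (adjusted p = 0.0706).

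Prkca (protein kinase Cα) rose without overlap, from 8.16, 8.34 and 8.48 to 8.50, 8.57 and 8.71, by 0.23 ± 0.041 (adjusted p = 0.000589). Pde3a, the phosphodiesterase that breaks down cAMP in cardiac muscle, rose by 0.21 ± 0.042 (adjusted p = 0.00412), and Rgs2, which damps Gq signalling, by 0.36 ± 0.076 (adjusted p = 0.00737, ended by any 1 of 12 arrays). Rnf207, a ring finger protein linked to the QT interval in people, went from 8.31, 8.49 and 8.63 to 8.61, 8.81 and 8.94, by 0.32 ± 0.055 (adjusted p = 0.00032). Sleep-deprived animals stood at 8.23, 8.42 and 8.66, a difference from baseline of -0.06 ± 0.057 (adjusted p = 0.674) and from sleep of -0.38 ± 0.058 (adjusted p = 5.67e-06). None of 33 ion channel genes passed (median 0.06, 24 above 0), with the L-type channel gene Cacna1c at 0.24 ± 0.059 (adjusted p = 0.0309) and Kcnd2 at 0.21 ± 0.057 (adjusted p = 0.0558). The natriuretic peptide Nppb gave -0.46 ± 0.18 (adjusted p = 0.209).

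Zc3h6, a CCCH zinc finger protein, rose on both of its probe sets, by 0.56 ± 0.087 and 0.50 ± 0.075 (adjusted p = 2.75e-05 and 2.03e-05). Deprived minus sleep was -0.67 ± 0.092 and -0.46 ± 0.079, and deprived minus baseline -0.11 ± 0.090 and 0.04 ± 0.078 (adjusted p = 0.631 and 0.875). Camta1 rose on 1 of its 4 probe sets (0.31 ± 0.066, deprived minus sleep -0.33 ± 0.069), whereas the brightest gave -0.10 (adjusted p = 0.429). Lmo7, a protein of cell junctions, rose by 0.17 ± 0.035 and gave -0.17 ± 0.037 for deprived minus sleep. The long non-coding RNA Lncpint rose without overlap by 0.49 ± 0.075 (adjusted p = 2.03e-05) and rose again from 3 to 6 h by 0.37 ± 0.077 (adjusted p = 0.00581).

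The remaining genes that rose were the R-spondin receptor Lgr6 (0.37 ± 0.062), the pro-apoptotic Bcl2l11 (0.33 ± 0.068), the focal adhesion protein Tns2 (0.30 ± 0.061), Stard13 (0.23 ± 0.042) and Fam174b (0.30 ± 0.064), whose far brighter second probe set gave 0.01 (adjusted p = 0.958). Among those that fell without overlap were the secreted Angptl7 (-0.63 ± 0.12), the Nogo receptor Rtn4r (-0.57 ± 0.10), the cyclin-like Ccnjl (-0.54 ± 0.096), the transcriptional co-regulator Cited4 (-0.47 ± 0.098) and Ccdc69 (-0.42 ± 0.070). With overlap, Lonrf3 (-0.59 ± 0.089), Fv1 (-0.33 ± 0.072), the Mediator subunit Med20 (-0.30 ± 0.064), Lrrc75a (-0.28 ± 0.056), the lipid transfer protein Plekha8 (-0.25 ± 0.047) and the co-repressor Rcor1 (-0.19 ± 0.038) fell as well. Leaving out any 1 of 12 arrays ended the call of Camta1, any 1 of 12 that of Med20, any 1 of 11 that of Fam174b, of 9 that of Lmo7, of 8 that of Cited4 or of Galm, of 6 that of Bcl2l11, of 5 that of Klf9, of 4 that of Pde3a, of 3 that of Tns2, and of 2 that of Lrrc75a or of Rcor1. The call of Angptl7 ended without sleeping array 2 (adjusted p = 0.012). Klf15 and Fv1, with adjusted p of 0.00981 and 0.00976, were nearest to the threshold, and any 1 of 17 arrays ended the call of Fv1. Ccnjl fell further from 3 to 6 h of sleep, by 0.67 ± 0.098 (adjusted p = 3.08e-06).

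Other pathways had few or no calls. None of 47 respiratory chain genes (median -0.01), 33 proteasome subunits (-0.02), 39 DNA repair genes (0.01), 52 splicing factors (0.01), 39 genes of ribosome biogenesis (-0.05), 27 of autophagy and lysosome (0.01), 37 of insulin and growth signalling (0.03), 29 collagens and matrix genes (0.05) or 26 interferon-induced genes (-0.05) passed. In the list of 32 antioxidant genes Txnip alone passed (median -0.04), and the glutathione transferase Gsta3 gave -0.49 ± 0.11 (adjusted p = 0.0118). Txnip is described above for glucose uptake, and its place in this list does not make its rise a rise of antioxidant defence. Of 23 genes of branched-chain amino acid catabolism, Klf15, their regulator, passed and no enzyme did (median -0.02, with Acad8 at -0.16 ± 0.058). Of 31 cell cycle genes Wee1 passed, downward, and 4 lay above 0 (median -0.11). Over all symbols, 0.122% rose and 0.101% fell past 1%. The 46 list medians were recomputed with arrays centred on their medians and with the comparison kept to the baseline run. None moved by more than the combined SD of the list mean between single arrays. That SD is wide for a median difference, so this shows little. Some signs changed within the baseline run, as for the liver markers (0.12 to -0.31), DNA repair (0.01 to -0.02) and splicing factors (0.01 to -0.01).

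The comparison was then kept within the run of title numbers that holds the baseline, as 5 sleeping against 10 baseline arrays. There 285 probe sets were higher and 56 lower (0.802% and 0.157%), more than in the full comparison, and 178 of these 341 had no gene symbol, 171 of them on the higher side. Leaving out sleeping array 1 brought the shares to 0.304% and 0.045%, and leaving out sleeping array 2 brought the counts to 98 and 17. Among genes that could be named, 29 probe sets were higher and 46 lower. Over all probe sets with 1 symbol, named or not, 58 were higher (0.273%) and 49 lower (0.231%), or 0.504% in either direction. Of the 44 probe sets called in the full comparison, 38 passed within the run, and 6 did not: Fv1, Cpt1a, Klf9, Camta1, Bcl2l11 and Rgs2.

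The 44 probe sets were called on the 5 sleeping arrays of the baseline run and the 4 of the other run together, against the same baseline arrays, so a shared sign in both is largely fixed by that choice and is given as a description only. For 25 the difference was smaller in the other run and for 19 larger. Klf10 had 0.63 within the run and 0.33 outside it and Zbtb16 0.68 and 0.35, the widest gap of the 44. Between the 4 and the 5 sleeping arrays themselves, 9 probe sets differed at 1% (0.0253%), all without a symbol, and none of the 44. When the 5 sleeping arrays were set against only the 5 baseline arrays whose title numbers come just before theirs, no probe set passed 1% (limma, smallest adjusted p = 0.0721), and 1652 were higher and 2366 lower at an unadjusted p under 0.05.

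**Figure D4:**
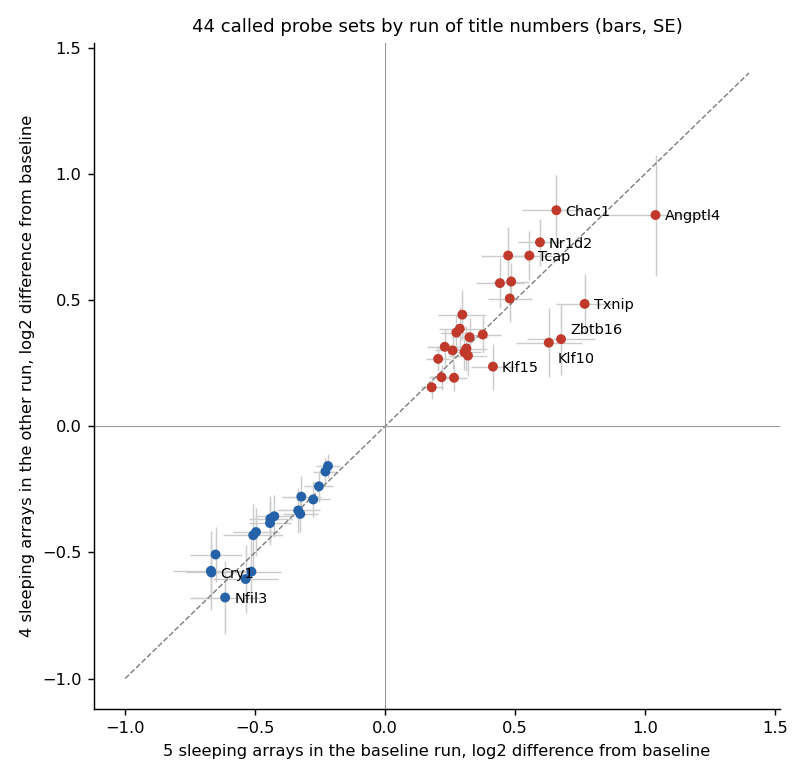
Log2 difference from baseline of the 44 called probe sets in the 5 sleeping arrays of the baseline run (x axis) and in the 4 sleeping arrays of the other run (y axis), with SE bars and the line of equality. Among the genes that rose, Txnip, Klf10 and Zbtb16 lie farthest below the line. The probe sets were called on both sets of sleeping arrays together and both axes share the 10 baseline arrays, so their common sign is largely fixed by that choice.

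Sleep-deprived animals of the same hour placed these genes further. Of the 44 probe sets, 10 differed between deprivation and sleep at 3 h, 5 higher (Zbtb16, Chac1, Klf15, Klhl38 and Galm) and 5 lower in deprivation (both of Zc3h6, Rnf207, Camta1 and Lmo7), where 2.19% of probe sets with 1 symbol did so (1.14% higher and 1.05% lower). For 34 no difference was found past 1%, which does not show that the states were alike. Without sleep-deprived array 8 the count was again 10, with Nfil3 added and Klhl38 lost. Against baseline, deprived animals gave 1.68 ± 0.12 for Zbtb16, 1.52 ± 0.12 for Chac1 and 0.86 ± 0.075 for Klf15, beside 0.53 ± 0.11, 0.75 ± 0.12 and 0.34 ± 0.073 in sleep, and -0.11 ± 0.090 for Zc3h6, -0.06 ± 0.057 for Rnf207 and 0.01 ± 0.043 for Galm, beside 0.56 ± 0.087, 0.32 ± 0.055 and -0.21 ± 0.042. These comparisons share the baseline or the sleeping arrays.

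Levels at later hours of sleep were set beside those at 3 h. From 3 to 6 h, 5 of the 44 passed 1% (Nfil3 and Ccnjl downward, Tcap, Nr1d2 and Lncpint upward), each in its first direction, where 0.207% of probe sets with 1 symbol passed (0.127% upward and 0.0801% downward). For the others no difference was found past 1%, which does not show that their change had ended. Means of Angptl4 were 6.18 ± 0.30 at baseline, 7.13 ± 0.44 at 3 h, 6.81 ± 0.37 at 6 h and 6.25 ± 0.19 at 12 h of sleep (SD, n = 10 and 9), and those of Pde3a 9.17 ± 0.068, 9.37 ± 0.067, 9.28 ± 0.11 and 8.97 ± 0.065. Wee1 was at 7.45 ± 0.11 at 3 h and 8.99 ± 0.13 at 12 h, beside 7.92 ± 0.12 at baseline. All 9 and 12 h arrays lie in other runs of title numbers than the baseline, so that levels at those hours and the runs cannot be told apart.

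**Figure D5:**
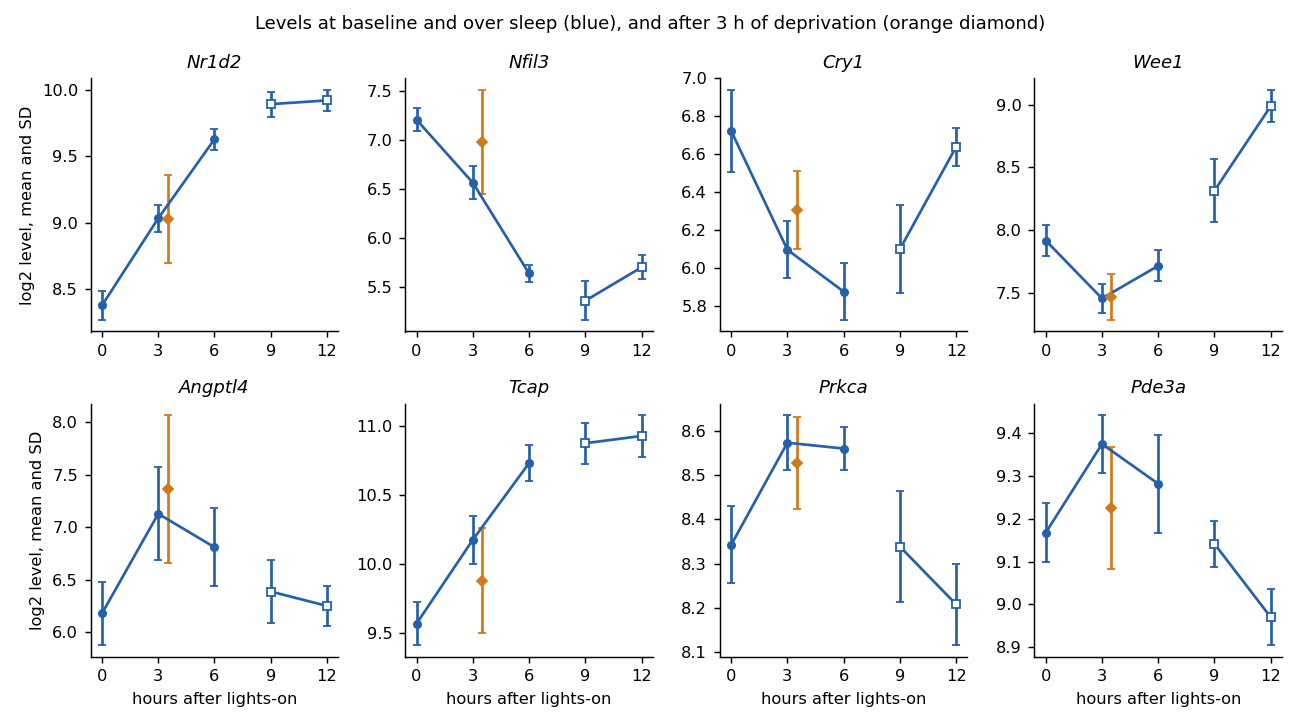
Mean log2 level with SD bars against hours after lights-on at baseline (n = 10) and in sleep (blue, n = 9 each), with the sleep-deprived group of 3 h as an orange diamond drawn slightly to the right (n = 8). Open squares at 9 and 12 h lie in other runs of title numbers and are not joined to the earlier points. Nr1d2, Tcap and Nfil3 went on in their first direction to 6 h, while the means of Angptl4 and Pde3a were highest at 3 h among these 5 times.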

How the data were processed

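Heart RNA of 80 mice, 1 array per animal, was measured on Affymetrix Mouse Gene 1.0 ST arrays. The authors summarised and normalised all heart arrays together by RMA, and the deposited values are log2 intensities of 35556 probe sets from which the decimal point is missing. It was put back here after the first digit or, for 173798 of 2844480 values, after the first 2, and 1 value could be read both ways. Groups came from the labels. Differences were tested with limma 3.58.1 (R 4.3.3) on 9 group means, with Benjamini-Hochberg adjustment over all probe sets and a threshold of 1%, and the method was tested on simulated data. Every column was used. Gene symbols came from the platform annotation, and probe sets with several symbols or none were counted but not named. All called genes with a symbol of their own were named, with list genes described by their lists. The members and the gene lists were chosen with earlier results of these data known. Alternatives left out arrays, changed the arrays in the fit, or changed the block, scaling, filter, weights, shrinkage and threshold. Those on arrays that stand apart, on skeletal muscle markers and on sleep-deprived arrays out of step were chosen after seeing the data.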

Additional observations from a re-analysis of the deposited data

Results flagged for a closer look

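Single arrays stood far from the rest of their group by Dixon's ratio in 15 of 230 groups of gene values (6.52%), where chance gives about 1 in 20. In baseline hearts the highest array was far above the next for Acta1 (11.6 in array 2), Myh4 (9.35 in array 2), Dnajb1 (7.99 in array 4), Jun (9.84 in array 4), Per1 (7.34 in array 5) and Pdk4 (11.58 in array 6), and the lowest was far below the next for Cry1 (6.19 in array 9) and Ucp3 (8.10 in array 4). In sleeping hearts the highest array stood apart for Bhlhe41 (8.03 in array 7), Fbxw11 (8.93 in array 9), Huwe1 (10.21 in array 1), Lmo7 (10.54 in array 1), Lonrf3 (5.28 in array 6) and Prkca (8.71 in array 9), and the lowest for Atf4 (6.59 in array 2). Of 32 groups of marker means 3 stood apart in the same way, with the skeletal muscle mean at 8.85 in baseline array 2, the B cell mean at 5.56 in baseline array 3 and the neutrophil mean at 4.13 in sleeping array 8.

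Of the genes that changed in the first 3 h of sleep, 10 probe sets differed between sleep-deprived and sleeping animals at 3 h by the limma test of that difference. Over all probe sets with 1 symbol, 2.19% did so. Both comparisons use the same sleeping arrays, so the 10 are not separate support for the first change. Deprived minus sleeping was 1.15 for Zbtb16, 0.78 for Chac1, 0.53 for Klf15, 0.30 for Klhl38, 0.22 for Galm, -0.67 and -0.46 for the probe sets of Zc3h6, -0.38 for Rnf207, -0.33 for Camta1 and -0.17 for Lmo7.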

How the results depend on the processing

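The 44 named probe sets under the alternative settings gave 1537 combinations of a probe set and a setting. The sign reversed in none of these, and the threshold was missed in 289. The 44 were called on these same arrays, and many settings drop 1 array or leave the difference itself unchanged. The constant sign is therefore largely fixed by that choice and is a description only. Of the 44, 24 passed 1% whichever single array was left out, and 20 did not. Counts are given here as shares of all 35556 probe sets, which were 0.104% higher and 0.0562% lower in the comparison as reported. With 1 array left out they ran from 0.0506% to 0.107% higher and from 0.0394% to 0.0675% lower, the lowest shares higher being 0.0506% without sleeping array 2, 0.0562% without baseline array 4 and 0.0675% without baseline array 10. With only the 19 arrays in the fit 0.104% were lower and 30 of the 44 passed. With the title run as a block 0.641% were higher and 0.101% lower, and 43 of the 44 passed. Within the baseline run the shares were 0.802% and 0.157%, or from 0.276% to 1.02% and from 0.045% to 0.157% with 1 sleeping array left out, and 0.332% were higher with only those 15 arrays in the fit. With 5 against 5 arrays of that run none passed in limma (0% and 0%), while 1652 were higher and 2366 lower at an unadjusted p under 0.05. Array weights gave 0.247% and 0.225%, and a threshold of 5% gave 0.515% and 0.352%. Leaving out the 5 arrays that stand apart kept 36 of the 44 calls, and leaving out the 2 sleep-deprived arrays out of step kept 43. The cause of these shifts was not tested. Among genes that did not pass, signs changed for Cry2 (-0.0397 with the block, and -0.0077 to 0.0341 with 1 array left out), Per2 (0.016 with 5 against 5 arrays and 0.0006 without the arrays with skeletal muscle markers), Rorb (-0.0424 with 5 against 5 arrays) and Rbm3 (0.0292 with the block, 0.001 centred, 0.005 with quantile normalisation, 0.0224 with array weights, 0.0161 without the arrays that stand apart, and -0.0242 to 0.0161 with 1 array left out). No paired analysis was possible because the array numbers follow accession order and only name the arrays.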
